A study of Mus musculus with 7 samples.

Results

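Open chromatin that lies between genes, outside every protein-coding gene body and away from gene ends, was described in regulatory T (Treg) cells taken from mouse spleen. A peak was taken when it lay on a chromosome, was under 1000 bp wide, overlapped no protein-coding gene and had its nearest protein-coding gene end more than 1 kb and at most 100 kb away. The rule used position only, and 13836 of the 50213 deposited peaks (27.6%) met it. By distance to the nearest gene end, 4906 lay at 1 to 10 kb, 6755 at 10 to 50 kb and 2175 at 50 to 100 kb. Accessibility had been read by ATAC-seq, which uses a transposase to insert sequencing adapters where DNA is not wrapped tightly in nucleosomes. The Treg cells came from mixed bone marrow chimeras, which are mice whose blood system was rebuilt with equal parts of marked CD45.1+ marrow and CD45.2+ marrow. In the WT group (4 libraries) the CD45.2+ marrow was Foxp3Cre, and in the Opa1 KO group (3 libraries) it was Foxp3CreOpa1fl/fl. Both groups thus carried Cre under control of Foxp3 and a Foxp3-YFP reporter, and in the KO group Cre deletes the floxed Opa1 gene, which encodes a fusion and cristae protein of the inner mitochondrial membrane, in cells that express Foxp3. Sorted cells were positive for CD45.2, CD4 and YFP and negative for CD45.1, so the CD45.1+ Treg cells that share the same hosts were left out. The sources used here give neither the age of the mice nor whether each library is from a separate chimera.

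Intergenic open sites are often enhancers, silencers or boundary elements. They carry binding sites for transcription factors and can act on promoters far away through looping, so the gene nearest to a site need not be the gene it acts on. In Treg cells, distal elements bind lineage factors such as Foxp3, Runx and Ets proteins, and factors that answer the T cell receptor such as AP-1. Some sites counted as intergenic here are starts of noncoding genes, since the rule looked only at protein-coding genes.

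Of the 13836 intergenic peaks, 3172 (22.9%) touched an annotated noncoding gene, in 2815 cases a long noncoding RNA (lncRNA), and 382 peaks overlapped the 300-base window around the start of one. For these windows the reference sequence is at hand (RefSeq, GRCm38.p6, the assembly that mm10 names). Of the sequences that follow, the first is from the start of I730030J21Rik, which lies wholly inside the peak near Galnt6 that was higher in KO cells (chr15:100732688-100732987, minus strand). Next is the start of Rab10os, inside the peak near Rab10 that was lower (chr12:3235541-3235840, plus strand), and last the start of 4930554I06Rik, inside a peak near Tmc1 just outside the threshold (chr19:21104460-21104759, plus strand). Capitals mark matches, on either strand, to 6 short motifs: AP-1 (TGANTCA), ETS (CCGGAA or TTCCGG), RUNX (TGTGGTT or AACCACA), CRE (TGACGTCA), NF-Y (CCAAT or ATTGG) and Sp/KLF (GGGCGG or CCGCCC).
I730030J21Rik start: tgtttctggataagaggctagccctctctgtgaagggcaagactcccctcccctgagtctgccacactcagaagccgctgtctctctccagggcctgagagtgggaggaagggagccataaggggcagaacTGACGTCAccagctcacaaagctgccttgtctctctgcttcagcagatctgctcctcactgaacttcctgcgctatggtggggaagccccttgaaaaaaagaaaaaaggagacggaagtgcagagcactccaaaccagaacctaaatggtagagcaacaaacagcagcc
Rab10os start: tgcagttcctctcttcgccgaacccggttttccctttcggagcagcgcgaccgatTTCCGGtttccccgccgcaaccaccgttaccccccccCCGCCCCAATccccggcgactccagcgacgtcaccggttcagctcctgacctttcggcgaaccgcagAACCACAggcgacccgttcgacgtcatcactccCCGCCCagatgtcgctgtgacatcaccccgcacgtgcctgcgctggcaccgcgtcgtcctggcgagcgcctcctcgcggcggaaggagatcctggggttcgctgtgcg
4930554I06Rik start: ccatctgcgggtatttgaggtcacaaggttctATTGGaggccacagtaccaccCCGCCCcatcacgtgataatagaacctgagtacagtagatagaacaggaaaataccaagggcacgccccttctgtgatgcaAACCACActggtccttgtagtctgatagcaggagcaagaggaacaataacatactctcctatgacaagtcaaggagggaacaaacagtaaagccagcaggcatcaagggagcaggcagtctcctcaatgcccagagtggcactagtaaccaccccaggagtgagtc
The I730030J21Rik window holds 1 CRE match, the 8-letter palindrome bound by CREB and ATF proteins, and none of the other 5 motifs. The Rab10os window has a GC content of 67.3% with 39 CpG dinucleotides, and it holds matches to ETS, RUNX, NF-Y and Sp/KLF, of which an NF-Y match and a Sp/KLF match share 1 base. The 4930554I06Rik window, at 50.7% GC with 4 CpG, holds RUNX, NF-Y and Sp/KLF matches.

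Across all 420 windows of noncoding starts that overlapped an intergenic peak, the RUNX letters occurred in 10.7%, against 6.26% of the 10120 noncoding windows at no peak and 5.27% of all 32851 windows of the same length. The AP-1 letters occurred in 12.9%, against 9.46% and 7.81%. ETS letters were found in 14.0% and Sp/KLF letters in 32.1%, against 5.93% and 10.8% of noncoding windows at no peak, while all windows together held them in 14.9% and 35.7%. NF-Y letters were in 33.1% and the CRE palindrome in 1.9% (8 windows), against 36.4% and 0.711% at no peak. The windows at intergenic peaks also had a higher median GC content (51.5% against 47.7%) and more CpG (median 7 against 3), and the part of base composition in these shares was not tested. By distance, RUNX letters were in 5.65% of the 124 windows at 1 to 10 kb and in 13.2% and 11.8% of those at 10 to 50 and 50 to 100 kb, while Sp/KLF letters were in 42.7%, 26.8% and 30.9%. A match of letters is a description and does not show that a factor binds there.

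The intergenic peaks were narrow, with a median width of 301 bp (41 were under 50 bp), and most were weak. Their median level was 7.5 CPM (counts scaled to 1000000 per library with TMM factors) over the 7 libraries. Intragenic peaks away from gene ends had nearly the same median, 7.86 CPM, while peaks at gene ends stood at 23.7 CPM and the whole table at 9.49 CPM. Level changed little with distance, from 7.77 CPM at 1 to 10 kb through 7.32 to 7.56 CPM at 50 to 100 kb. Peaks on the start window of a noncoding gene were brighter (median 15.2 CPM), and those on no annotated gene had a median of 7.19 CPM. Of the intergenic peaks 68.7% had another peak of any kind within 10 kb, falling from 77.5% at 1 to 10 kb to 61.8% at 50 to 100 kb. This was near the 68.25% of the whole table, with 71.32% for intragenic and 64.46% for gene-end peaks. The intergenic peaks were shared out among 5844 nearest genes, of which 2946 had a single one and 115 had 10 or more. Where the gene table gives strand, 5875 peaks lay before the start of their nearest gene and 4929 after its end; it gives none for the genes of the other 3032.

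A few genes gathered many intergenic peaks. Btg1, which encodes a protein that restrains T cell proliferation, had the most, 31, followed by S1pr1, the receptor that lets lymphocytes leave lymphoid organs, with 26. Nrip1, a nuclear receptor corepressor, had 24, and 2210010C04Rik, Chd2 and Irf2bp2 had 18 each. Summed over the 31 Btg1 peaks, the libraries held 542, 525, 527 and 515 CPM in WT and 554, 556 and 587 CPM in KO. The sums did not overlap between genotypes, and 21 of the 29 tested peaks had a log2 fold change above 0 (median 0.20), yet none was called by edgeR (smallest adjusted p 0.556), DESeq2 or limma-voom, and none had an unadjusted p under 0.05. Over all tested peaks 49.84% were above 0, edgeR called 0.0867% and 9.47% had an unadjusted p under 0.05. Taken singly, 9.36% of all tested peaks did not overlap between genotypes. S1pr1 sums were 430 to 503 CPM in WT and 473 to 526 CPM in KO, and those of Nrip1 252 to 308 and 244 to 295 CPM, both overlapping. The sums of 2210010C04Rik, Chd2 and Irf2bp2 overlapped as well.

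The libraries and the cells were checked first. Total counts in peaks ran from 1534394 to 2134586 in WT and from 1658436 to 3384325 in KO, with KO replicate 1 the deepest, and the intergenic peaks held 276802 to 598951 of them with a median count per peak of 12 to 24. WT replicates 2 and 3 differed by about as much as sampling noise alone gives (the chi-square of their halved counts over 33169 peaks was 1.005 times its degrees of freedom, p = 0.26), so that no difference was found, while every other pair within a genotype differed. They were therefore averaged into 1 sample in each mean ± SD (n = 3 WT and n = 3 KO throughout) but kept as separate libraries in the tests. These were also the WT libraries with the fewest counts, where a difference is harder to see. Opa1 has no intergenic peak; its 7 peaks summed to 72.4 to 91.7 CPM in WT and 79.2 to 95.5 CPM in KO, and since exons are not in the gene table, whether any lies in the deleted part is unknown and they do not check the label. Foxp3, also without an intergenic peak, held 69.3 to 98.2 CPM over its 3 peaks in the 7 libraries. Among B cell genes, Ms4a1, Cd79a and Cd79b had no peak, but the 11 peaks of the B cell list summed to 65.6 to 82.4 CPM in WT and 46.8 to 56.6 CPM in KO. The 25 peaks of CD8 and NK genes went the other way (255 to 286 and 293 to 310 CPM), with Gzma and Ncr1 at no peak, and myeloid and erythroid genes overlapped between genotypes. The part of these markers in the results that follow was not tested. In bulk libraries fewer cells with an open site and less opening per cell cannot be told apart.

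The first comparison asked how much of the accessible signal lay in intergenic peaks in each genotype. They took 18.44%, 18.04%, 18.24% and 18.17% of the counts in WT replicates 1 to 4 and 17.7%, 17.8% and 17.5% in KO replicates 1 to 3. Every KO library was below every WT library, with means of 18.3% ± 0.168 and 17.7% ± 0.148 (SD). Over the 7 libraries the KO share was lower by 0.550 percentage points (KO minus WT -0.550, exact permutation test, two-sided p = 0.0571), which is the smallest p that 4 against 3 libraries allow, and it stood at 0.0571 after adjustment over the 4 shares tested. The difference was -0.207 points at 1 to 10 kb and -0.287 points at 10 to 50 kb, again without overlap. At 50 to 100 kb it was -0.057 points, and the groups were almost touching, with 2.942% in WT replicate 2 and 2.939% in KO replicate 2. With genes of all types in the distance rule that last difference was -0.008 points (exact permutation p = 0.2857). With WT replicates 2 and 3 summed into 1 sample, the difference over all intergenic peaks was -0.581 points. Its exact permutation p was 0.1000, with fewer splits possible.

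**Figure D1:**
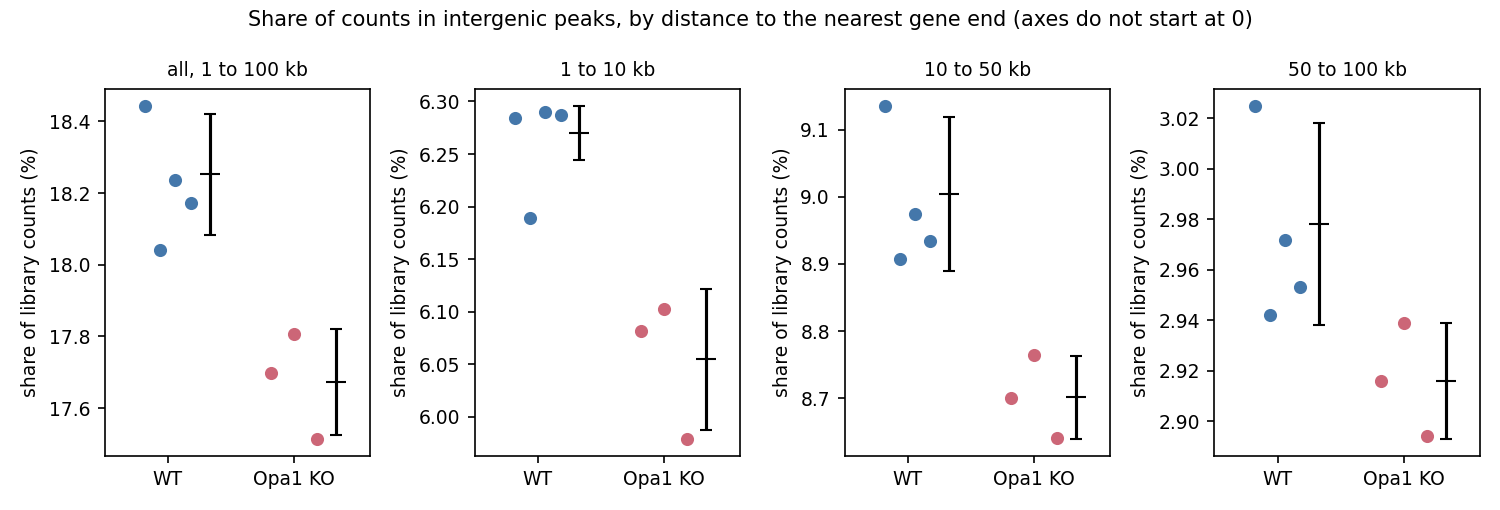
Share of each library's peak counts (percent, vertical axes not starting at 0) that lay in intergenic peaks, for all of them and for the 3 distance classes; points are libraries and bars the mean ± SD with WT replicates 2 and 3 averaged. Every KO library lies below every WT library in all 4 panels, narrowly so at 50 to 100 kb (2.942% in WT replicate 2, 2.939% in KO replicate 2).

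Other parts of the table moved with this share. Gene-end peaks took 43.7% to 44.6% of the counts in WT and 44.8% to 45.3% in KO, and intragenic peaks 30.2% to 30.6% and 29.9% to 30.2%, so the lower share was not particular to intergenic sites. Peaks more than 100 kb from a gene overlapped between genotypes (exact permutation p = 0.4000). Once scaled with TMM factors, the summed level of the 9852 tested intergenic peaks was 173379 to 176658 CPM in WT and 172341 to 174578 CPM in KO, which overlapped.

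Peak by peak, few intergenic sites were called. The test was edgeR's quasi-likelihood test on the whole table with Benjamini-Hochberg adjustment at 0.05, and every adjusted p that follows comes from it unless another tool is named. In simulated counts with the levels and spread of all tested peaks, it recovered 36% of 2-fold and 85% of 4-fold changes. A peak that was not called may therefore still differ. Of the 13836 peaks 9852 had enough counts to be tested and 3984 did not. Called were 9 of them (0.0914%), 3 higher and 6 lower in KO, beside 0.0867% of all 38041 tested peaks (0.0473% higher and 0.0394% lower), so intergenic sites were called about as often as any peak. At 1 to 10 kb 3 were called and at 10 to 50 kb 6. At 50 to 100 kb edgeR called 0 of 1486, and DESeq2 called 1 and limma-voom 0. Of the 1486, 152 (10.2%) had an unadjusted p under 0.05, beside 9.47% of all tested peaks. With total counts as the only scaling the split was 2 higher and 7 lower, with limma-voom 4 and 5, and with no count filter 4 and 6. Over all tested peaks these alternatives called 0.0973% (total counts), 0.145% (limma-voom, and also DESeq2) and 0.0677% (no filter). The count rested on single libraries. Leaving out KO replicate 1 gave 2, KO replicate 3 gave 3 and WT replicate 1 gave 3, beside 0.038%, 0.0407% and 0.0515% of all peaks. Leaving out WT replicate 3 or 4 gave 6, of which 3 and 5 were lower, beside 0.0736% and 0.0711% of all peaks. Halved counts gave 19 intergenic calls, a mean count of at least 20 gave 14 and loess offsets 11, beside 0.324%, 0.25% and 0.092% of all peaks tested in those fits. With WT replicates 2 and 3 summed there were 11, beside 0.112%.

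The most firmly lowered site lay 21414 bp from Bhlhe40, which encodes a basic helix-loop-helix repressor that acts in activated T cells (chr6:108688339-108688786, mm10). It held 61.0, 69.0, 51.8 and 67.4 CPM in WT replicates 1 to 4 and 30.8, 29.1 and 31.3 CPM in KO. All 3 KO libraries sat close together, far below the lowest WT library. WT replicates 2 and 3, averaged in the mean ± SD, were the highest and the lowest WT library here, which narrows the WT SD. The means were 63.0 ± 3.89 and 30.4 ± 1.16 CPM (SD), and the log2 fold change was -1.03 (SE 0.17, adjusted p = 0.000265). It alone was called under all 16 alternative fits of the counts, including the removal of each library. The 9 other tested Bhlhe40 peaks were not called (log2 fold changes -0.58 to 0.94, smallest adjusted p 0.344). At the gene ends, the peak at chr6:108660204-108660773 had 98.7 CPM in WT and 98.1 CPM in KO (-0.00). Those at chr6:108659321-108659683 (41.1 and 28.6 CPM) and chr6:108661508-108661814 (34.5 and 34.2 CPM) gave -0.54 and 0.01.

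At Letmd1, whose product is a LETM1-domain protein of the mitochondrial inner membrane, a site 18524 bp before the gene start and on the lncRNA 5330439K02Rik fell (chr15:100443339-100443897). Slc11a2, the metal ion transporter gene on its other side, is 19130 bp away, nearly as close. Its levels were 26.2, 13.5, 30.1 and 34.8 CPM in WT and 6.78, 13.9 and 6.47 CPM in KO. WT replicate 2 was as low as KO replicate 2, so the groups overlapped, alone among the 9 sites. The log2 fold change was -1.61 (SE 0.31, adjusted p = 0.00517), and without 1 of 3 libraries (KO replicate 1, KO replicate 3 or WT replicate 4) it was no longer called (adjusted p 0.0663 to 0.118).

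Near Dscam, a neuronal adhesion gene, the site 32947 bp before the gene start (chr16:97204060-97204562) had 41.7, 52.8, 69.9 and 63.2 CPM in WT and 27.1, 35.4 and 28 CPM in KO. Every WT library was above every KO library, though WT replicate 1 was only a little higher than KO replicate 2. It fell by 0.93 on the log2 scale (SE 0.18, adjusted p = 0.0065). All 4 other tested Dscam peaks were below 0 too, from -1.31 to -0.47, and none was called (smallest adjusted p 0.273). Leaving out KO replicate 1 or 3 or WT replicate 3 or 4 ended the Dscam call (adjusted p 0.0588 to 0.128).

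The site on the start of Rab10os, 11440 bp from the end of Rab10, which encodes a small GTPase of vesicle traffic, was the brightest of the 9 (chr12:3235143-3235988, the Rab10os sequence above). It held 112, 107, 95.1 and 121 CPM in WT and 62.5, 85.9 and 70.1 CPM in KO. No KO library reached the lowest WT library. The change was the smallest called, -0.60 (SE 0.12, adjusted p = 0.0127), and the 5 other tested Rab10 peaks were all above 0 (0.05 to 0.43, smallest adjusted p 0.436). Without WT replicate 1 or 4 or KO replicate 1 or 3 it was not called (adjusted p 0.0853 to 0.255).

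A cluster of 3 peaks within 2 kb lay before the start of Trim5, one of a family of antiviral restriction factors. The called one, 3314 bp away (chr7:104291568-104291948), held 65.4, 65.0, 61.4 and 55.9 CPM in WT and 35.4, 44.2 and 33.4 CPM in KO. The groups were well apart. It fell by 0.73 (SE 0.16, adjusted p = 0.0385), and its neighbours on both sides stood at -0.61 and -0.52 without being called (smallest adjusted p 0.303). The Trim5 call held when KO replicate 2 or WT replicate 4 was left out, and was lost without any of the other 5 libraries (adjusted p 0.0615 to 0.256) and with no count filter (0.0521).

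Near Bach1, which encodes a heme-sensing repressor, a weak site 41371 bp before the gene start (chr16:87657356-87657583) held 8.72, 10.8, 9.03 and 6.32 CPM in WT and 1.23, 1.26 and 0 CPM in KO. In counts this was 61 over the WT libraries against 6 over the KO libraries, of which KO replicate 3 had 0. As a ratio of read pairs scaled by library size KO stood at 0.103 of WT (95% exact interval 0.0201 to 0.33, counting error only), and the adjusted p was 0.017 with a fitted log2 fold change of -3.21. With 4, 2 and 0 counts in KO, the peak passed the count filter only through the WT libraries, where it was high. Its p is therefore no independent support. The call held in 5 of 16 alternative fits and was lost in 8, and 3 gave this weak peak no adjusted p. It was lost without KO replicate 1 or 3 or WT replicate 1, 2 or 3 (adjusted p 0.0585 to 0.181), and limma-voom gave 0.199. Of the 13 other tested Bach1 peaks none was called, and their log2 fold changes ran from -0.18 to 0.52. Bach1 and Dscam lie on chromosome 16, the chromosome of Opa1, where 2 of 401 tested intergenic peaks were called, beside 2 of 364 on chromosome 15, 2 of 651 on chromosome 6 and 0.0914% of all intergenic peaks. An unadjusted p under 0.05 was found for 11.7% of them on chromosome 16, 12.3% on chromosome 19 and 9.77% over all chromosomes.

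The other 3 called sites rose. At Esrp1, an epithelial splicing regulator, the site at 17230 bp (chr4:11404013-11404389) had 16.5, 21.7, 27.7 and 16.9 CPM in WT and 38.8, 44.2 and 48.5 CPM in KO. All KO libraries were above all WT libraries, and the site rose by 1.09 on the log2 scale (SE 0.21, adjusted p = 0.00562). The nearest tested neighbour of the same gene stood at 0.17. Without WT replicate 1 or 4 or KO replicate 3 the Esrp1 site was not called (adjusted p 0.0571 to 0.0952).

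The site on the start of I730030J21Rik, 3248 bp before Galnt6, the gene of an enzyme that starts mucin-type O-glycans, has the CRE palindrome shown above (chr15:100732624-100733075). It held 18.4, 16.2, 26.5 and 21.1 CPM in WT and 46.8, 42.3 and 37.2 CPM in KO. The lowest KO library was well above the highest WT library. It rose by 1.04 (SE 0.21, adjusted p = 0.00892), was called in 13 of 16 alternative fits, and lost the call without KO replicate 1 (adjusted p 0.174) or WT replicate 1 (0.0843).

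The weakest call was 4630 bp from Slc6a6, the taurine transporter gene, on the lncRNAs Gm40387 and Gm30628 (chr6:91679048-91679418). Its levels were 41.7, 37.9, 45.8 and 37.9 CPM in WT and 59.8, 71.4 and 69.6 CPM in KO. WT libraries were tightly grouped below all KO libraries. The log2 fold change was 0.70 (SE 0.16, adjusted p = 0.0386), and the Slc6a6 site stayed called in only 1 of 7 fits that left out a library (adjusted p 0.0693 to 0.197 in the others), and was lost with loess offsets (0.07) and with total counts as the only scaling (0.0508).

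**Figure D2:**
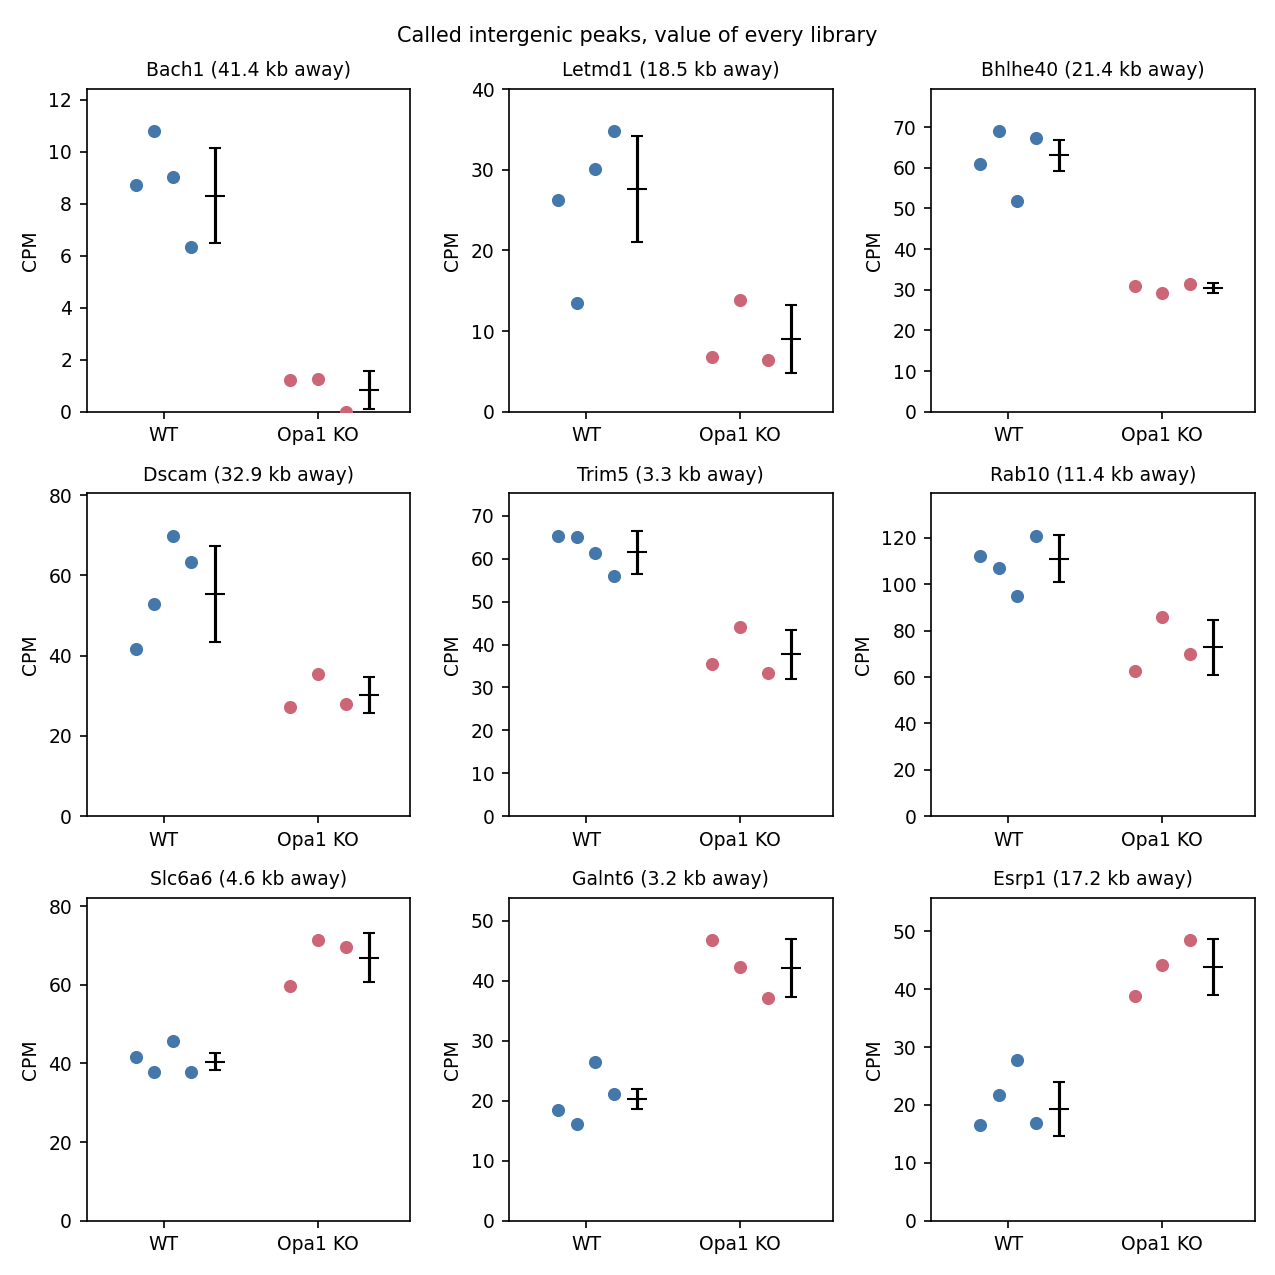
Level in CPM (vertical axes from 0) of the 9 called intergenic peaks in each of the 4 WT and 3 Opa1 KO libraries, named by the nearest protein-coding gene with its distance; bars are the mean ± SD with WT replicates 2 and 3 averaged. The groups are apart in 8 panels, and at Letmd1 WT replicate 2 (13.5 CPM) lies below KO replicate 2 (13.9 CPM). Peaks called on these same libraries tend to lie apart, beside 9.36% of all tested peaks.

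**Figure D3:**
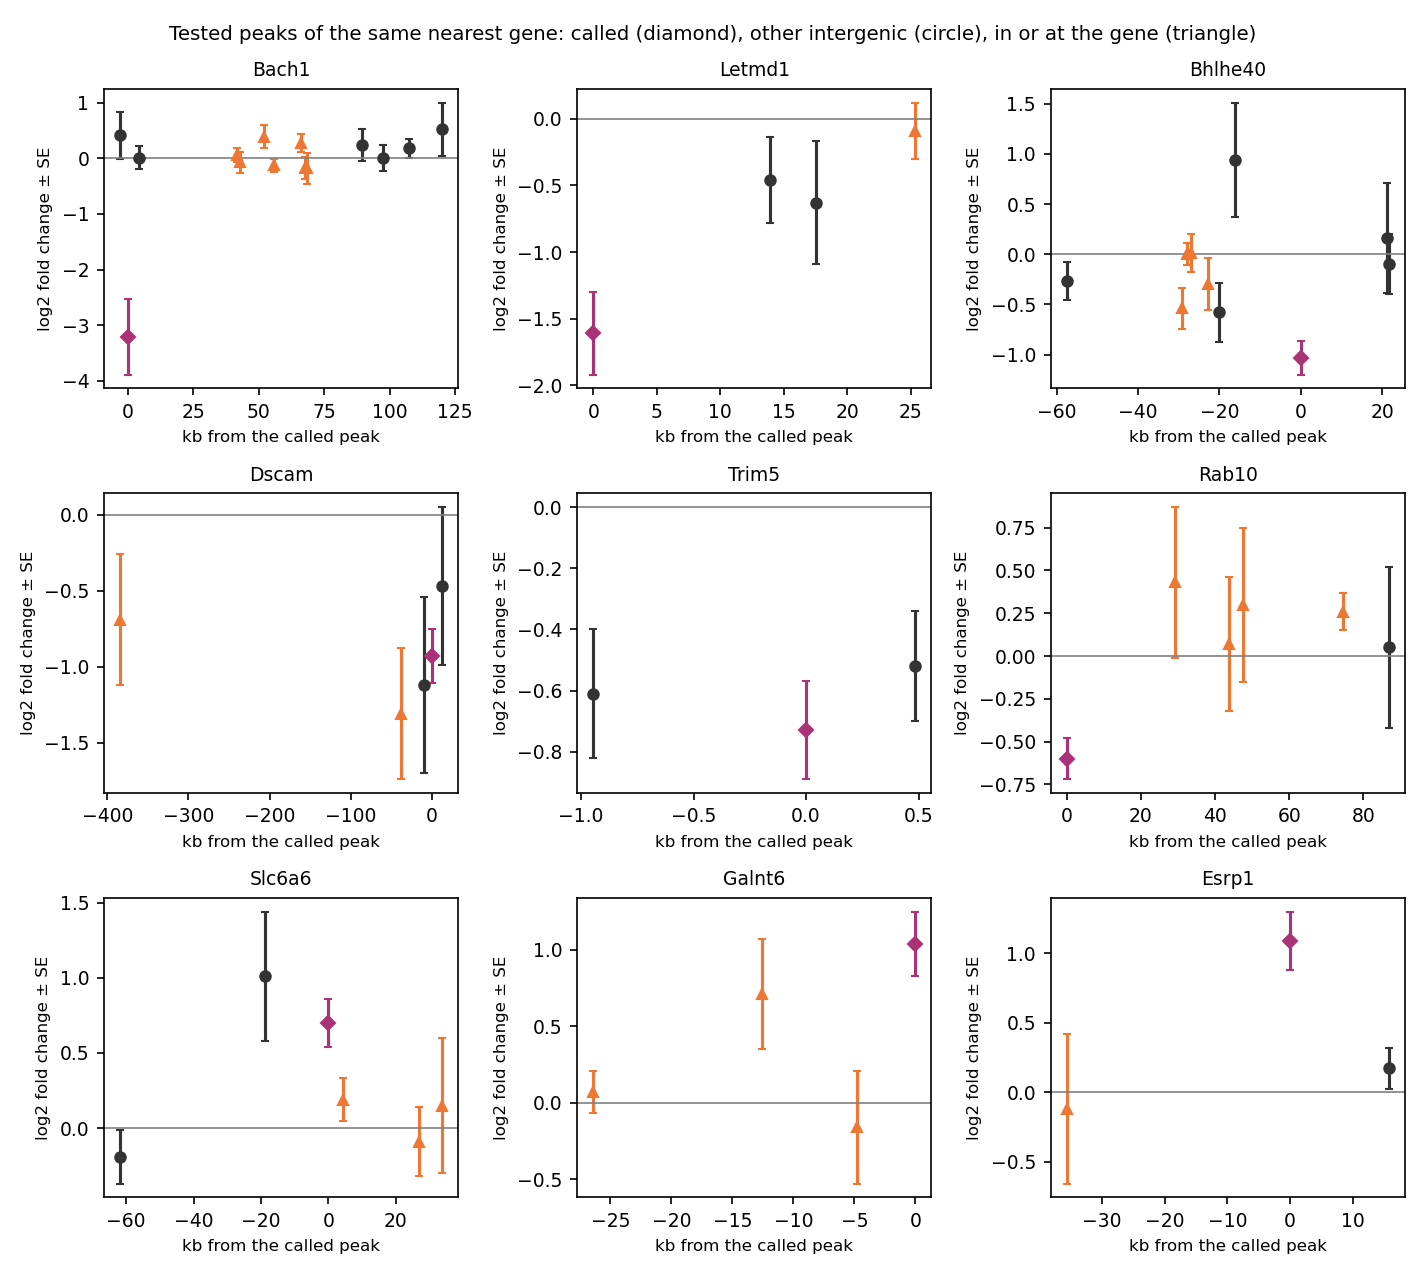
Log2 fold change of KO against WT (vertical, ± SE) of every tested peak assigned to the same gene as a called peak, by its distance along the chromosome from the called peak in kb; diamonds are called peaks, circles other intergenic peaks and triangles peaks in or at the gene. No other peak of the 9 genes was called, and those of Dscam, Trim5 and Letmd1 lie below 0 throughout.

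Just outside the threshold were 18 uncalled peaks named by rank, 3 per distance class and direction, with adjusted p from 0.0504 to 0.197. The closest was a site near 4930512M02Rik, on the lncRNA Gm11998 (chr11:11564231-11564634), with 29.1 to 42.7 CPM in WT and 55.0, 64.7 and 60.9 CPM over the KO libraries. Its groups were apart (log2 fold change 0.72, SE 0.17, adjusted p = 0.0504), and DESeq2 (0.03) and limma-voom (0.028) called it. A site 96146 bp from Nfkbiz, the gene of an atypical IκB protein induced by inflammatory signals, had 2.91, 2.71, 3.61 and 2.11 CPM in WT and 7.39, 13.3 and 14.6 CPM in KO (adjusted p = 0.0548), so all KO libraries were higher, from 20 counts in all WT libraries. The Nfkbiz peak passed the count filter only through the KO libraries. Near Cdkn2b, an inhibitor of the kinases that start the cell cycle, a site at 76244 bp had 5.27 to 8.43 CPM in WT and 12.6 to 21.0 CPM in KO (log2 fold change 1.43, adjusted p = 0.0575).

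On the lower side, a site 12484 bp from Wee1, the kinase that holds back entry into mitosis, had 71.7, 58.2, 59.0 and 49.5 CPM in WT and 38.2, 32.9 and 38.8 CPM in KO, without overlap (log2 fold change -0.70, adjusted p = 0.0575; DESeq2 0.036). The site 15161 bp before Hopx, an atypical homeodomain protein, had 116, 63.6, 104 and 97.0 CPM in WT and 58.8, 65.7 and 71.2 CPM in KO. WT replicate 2 lay within the KO range there, and without it the log2 fold change was -0.71 (adjusted p = 0.00224) in place of -0.57 (0.071). The 4930554I06Rik start near Tmc1, whose sequence is given above, had 30.5, 25.7, 32.5 and 46.4 CPM in WT and 17.9, 19 and 16.2 CPM in KO (log2 fold change -0.94, adjusted p = 0.0747), and DESeq2 called it. Near Pum3 a site had 42 counts in WT and 2 in KO, a ratio of 0.0506 of read pairs (95% exact interval 0.00122 to 0.315, adjusted p = 0.064). The Pum3 peak passed the count filter only through the WT libraries.

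The other 11 of these 18 peaks lay nearest to Mfsd9 (-1.66), Zdhhc14 (-0.98), Prune2 (-0.98), Bace2 (-1.54), Cd55 (0.78), Gen1 (0.56), Plekhf2 (1.27), Atp8a2 (0.63), Prnp (1.09) and Gm45988, given as log2 fold changes. Gm45988 had 1 peak in each direction, 0.51 and -1.59, that lay within 10 kb of each other. The Bace2 peak lies in the same interval between Bace2 and Dscam as the called Dscam site. This Bace2 peak and the Gm45988 peak at -1.59 passed the count filter only through the WT libraries. The Mfsd9 peak, with 16, 10 and 2 counts in KO, would not have passed it without the WT libraries, where it was high. Of the 18 peaks, 17 did not overlap between genotypes, which follows from choosing them by rank.

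Below the threshold the intergenic sites leaned to the lower side. Of the 9852 tested peaks 963 (9.77%) had an unadjusted p under 0.05, beside 9.47% of all tested peaks. Of these 379 were higher and 584 lower in KO, where the whole table had 4.74% higher and 4.73% lower. In the same way 932 peaks (9.46%, beside 9.36% of all tested) did not overlap between genotypes, 404 higher (4.10%, beside 4.85%) and 528 lower (5.36%, beside 4.51%). The median log2 fold change was -0.044, and 45.1% of the peaks were above 0, whereas the median was -0.001 over all tested peaks, 0.034 at gene ends, -0.014 inside genes and -0.010 beyond 100 kb. These are descriptions, since peaks of 1 library are not replicates.

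The lean was alike at 1 to 10 and 10 to 50 kb and smaller at 50 to 100 kb. Peaks without overlap between genotypes were 3.63% higher and 5.17% lower at 1 to 10 kb, and 4.12% and 5.68% at 10 to 50 kb. At 50 to 100 kb they were 5.18% higher and 4.78% lower, beside 4.85% and 4.51% of all tested peaks. The median was -0.050 at 1 to 10 kb, -0.048 at 10 to 50 kb and -0.020 at 50 to 100 kb. Among 12 narrower bins it ran from -0.073 at 40 to 50 kb to 0.021 at 70 to 80 kb, the only bin above 0, with lower quartiles of -0.348 to -0.265 and upper quartiles of 0.189 to 0.263. Just inside the edges of the rule it was -0.029 at 1 to 2 kb and -0.012 at 90 to 100 kb, and just outside them -0.036 for peaks up to 1 kb from a gene and -0.048 at 100 to 110 kb. Peaks before a gene start (-0.036) and after a gene end (-0.038) were alike in median. With loess offsets, which remove a trend of the fold change with level, the 3 class medians were -0.017, -0.019 and -0.002.

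**Figure D4:**
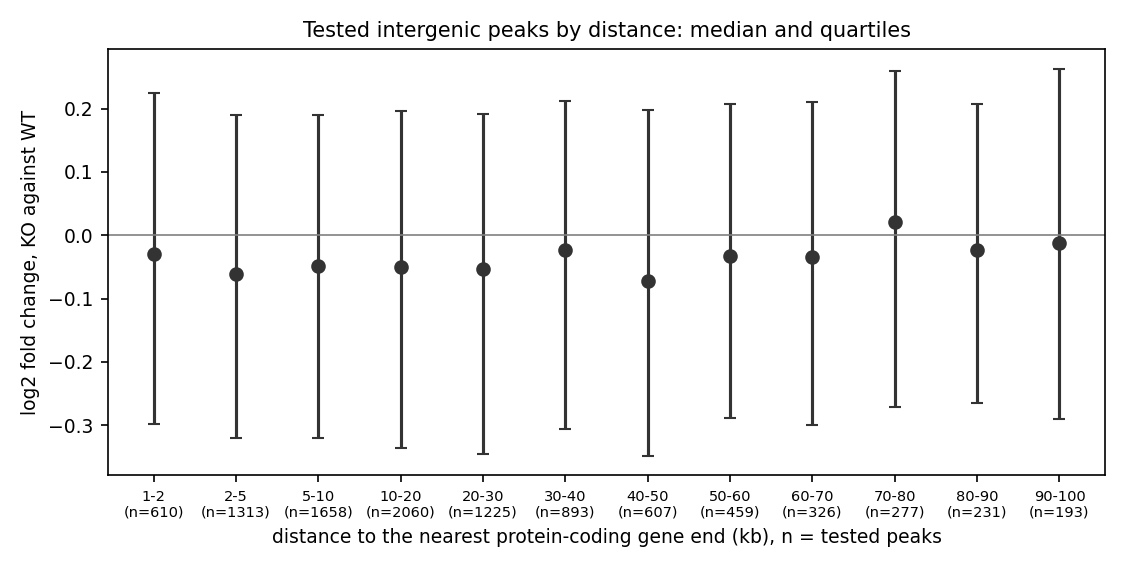
Log2 fold change of KO against WT (vertical) of the tested intergenic peaks by distance to the nearest protein-coding gene end in kb; points are medians, bars reach from the lower to the upper quartile, and n is the number of tested peaks. Medians lie between -0.073 and 0.021, well within the spread of every bin.

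The lean also moved with signal level. Intergenic peaks under 5 CPM had a median log2 fold change of -0.192, those of 5 to 10 CPM -0.119, of 10 to 20 CPM -0.052, of 20 to 50 CPM 0.021 and of 50 CPM or more 0.052. Peaks at gene ends went from -0.116 to 0.065 over the same bins, and intragenic peaks from -0.078 to 0.062. At each level the intergenic median was the lowest of the 3 kinds, with -0.119 against -0.078 and -0.062 at 5 to 10 CPM, for example. With loess offsets the intergenic medians ran from -0.026 to 0.014, the one under 5 CPM lying above 0 (0.014), and at every level they were still below the other kinds. Low peaks pass the count filter partly through the libraries in which they are high, and KO replicate 1 was the deepest library; the part of either in this trend was not tested.

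**Figure D5:**
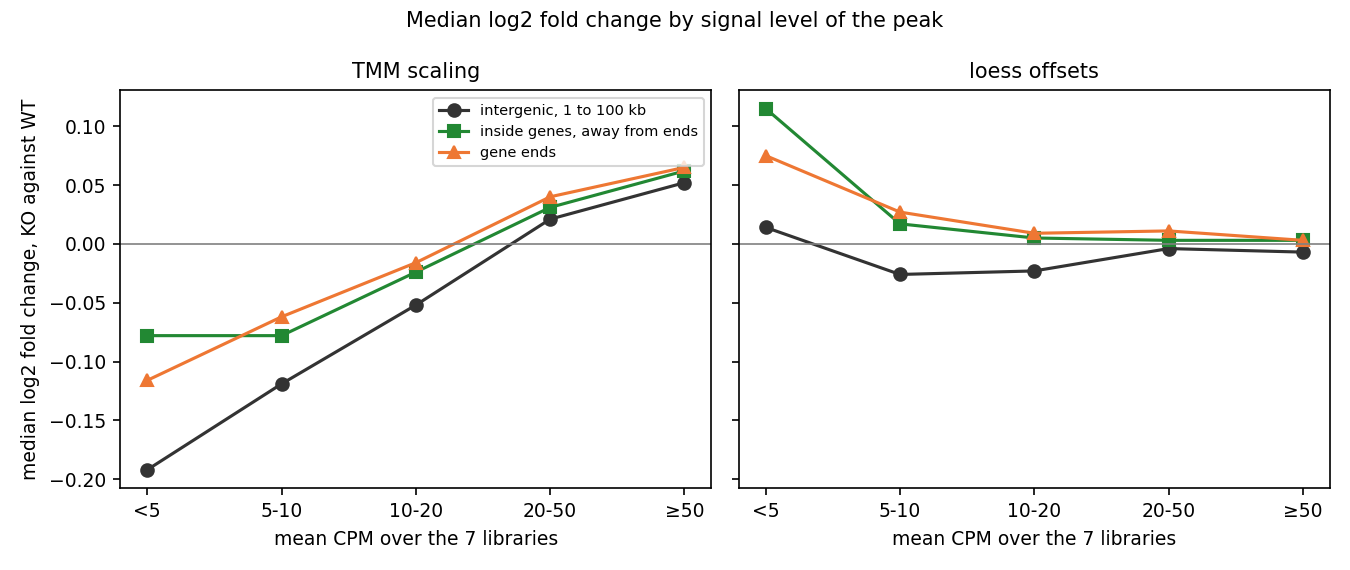
Median log2 fold change of KO against WT (vertical) of tested peaks by mean level in CPM over the 7 libraries, with TMM scaling (left) and loess offsets (right); circles are intergenic peaks, squares intragenic peaks and triangles gene-end peaks. With TMM scaling the intergenic median rises from -0.192 under 5 CPM to 0.052 at 50 CPM or more, and with loess offsets it lies between -0.026 and 0.014.

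The brightest intergenic peaks, 4 in each distance class, differed little between genotypes. None of the 12 was called by edgeR, DESeq2 or limma-voom, beside 0.0867% of all tested peaks with edgeR. An unadjusted p under 0.05 was found for 1 of them (Dnajc5b), beside 9.47% of all tested peaks. The log2 fold changes of the 12 peaks ran from -0.11 to 0.21. At 1 to 10 kb they lay near Slc2a3 (the GLUT3 glucose transporter), Pdcd1 (the inhibitory receptor PD-1), Cd69 (an early activation receptor that holds T cells in tissue) and Prss12, the last on the start of the noncoding host gene Snhg8. The Slc2a3 site had 290, 249, 229 and 226 CPM in WT and 264, 277 and 284 CPM in KO (0.14, SE 0.08, adjusted p = 0.619). At Pdcd1, 2515 bp after the gene end, the range was 170 to 193 CPM in WT and 176 to 190 CPM in KO, so the groups lay on top of each other (0.00, SE 0.09). The Cd69 site 8990 bp away had 153 to 188 CPM and 176 to 210 CPM (0.13, SE 0.09).

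At 10 to 50 kb the brightest intergenic peak of all was near Nlrp4f (chr13:65240403-65241005), with 334, 271, 315 and 286 CPM in WT and 283, 316 and 244 CPM in KO (-0.11, adjusted p = 0.749). The others were near Glcci1, a gene named for its induction by glucocorticoids, near Zfp324 and near Prss2. The Prss2 site, 29197 bp after that trypsinogen gene, is inside the annotated T cell receptor beta locus (Tcrb) and held 213 to 241 CPM in WT and 233 to 258 CPM in KO (0.09). At 50 to 100 kb the sites near Macir, Sp4, Gm51425 and Dnajc5b stood at 139 to 206 CPM over all libraries. Only at Dnajc5b did the groups not overlap, with 139 to 156 CPM in WT and 160, 172 and 179 CPM in KO (0.21, SE 0.10, adjusted p = 0.478).

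Sites near the genes that define Treg cells were read next, 1 per gene, the brightest. Of 18 genes asked for, 16 had an intergenic peak, and none of the 15 that could be tested was called (edgeR; 3 had an unadjusted p under 0.05, and DESeq2 and limma-voom called none). Their log2 fold changes ran from -0.44 to 0.46 with a median of 0.03. Groups did not overlap at 2 of the 16 sites, those near Ctla4 and Tcf7. Over all tested peaks edgeR called 0.0867%, 9.47% had an unadjusted p under 0.05 and 9.36% did not overlap between genotypes. Near Ctla4, which encodes the inhibitory receptor that Treg cells use to strip costimulatory ligands, the site 9994 bp before the gene start had 40.7, 31.8, 43.4 and 36.9 CPM in WT and 56.7, 49.9 and 50.2 CPM in KO. The groups were apart, with KO higher by 0.46 on the log2 scale (SE 0.17, adjusted p = 0.349).

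Near S1pr1 the brightest site held 72.2, 99.5, 73.5 and 74.8 CPM in WT and 107, 111 and 96.0 CPM in KO (0.40, SE 0.12, adjusted p = 0.237). WT replicate 2 alone reached into the KO range. Near Tcf7, the gene of a factor of resting and memory T cells, the site 16216 bp before the start had 85.7, 71.8, 68.6 and 101 CPM in WT and 63.5, 61.9 and 55.0 CPM in KO. Here KO was lower in every library, without a call (-0.44, SE 0.14, adjusted p = 0.251).

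The remaining Treg sites overlapped between genotypes. For Il2ra, the high-affinity interleukin-2 receptor chain, the site 16516 bp before the start had 16.9 to 36.8 CPM in WT and 27.0 to 34.1 CPM in KO (0.13, or -0.05 without WT replicate 3). Ikzf2, the gene of Helios, gave -0.09, which was 0.02 without WT replicate 1 or KO replicate 2. Icos stood at 0.18, Lef1 at 0.19, Bach2 at 0.10 and Prdm1, the gene of Blimp-1, at 0.16. Bcl2 (-0.11), Il7r (-0.18), Ccr7 (-0.20) and Klrg1 (-0.22) were below 0, and Nr4a1 and Tnfrsf9 were within 0.03 of it, with signs that changed between scalings. The Batf site, at 2.53 to 6.77 CPM over the 7 libraries, had too few counts to be tested.

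Intergenic peaks were then grouped by lists of genes, counted over all peaks nearest to a listed gene. Core Treg genes had 125 intergenic peaks, of which 108 were tested, 49 above and 59 below 0 (median -0.027), and none was called, with 8 at an unadjusted p under 0.05 of which 6 were higher. The Core Treg peak with the smallest p lay near Izumo1r, the gene of folate receptor 4, with 42.6 to 51.3 CPM in WT and 61.9 to 68.0 CPM in KO (0.43, adjusted p = 0.312). Effector Treg genes had 79 tested peaks, 37 above and 42 below 0 (median -0.047), 8 of them at an unadjusted p under 0.05, with the Bhlhe40 site as the single call over the lists. Genes of resting and central T cells had 90 tested peaks, evenly 45 above and 45 below 0 (median -0.008), 10 of them at an unadjusted p under 0.05. Genes of T cell receptor, AP-1, NFAT and NF-κB signalling had 135, with 56 above and 79 below 0 (median -0.081, 13 at an unadjusted p under 0.05), and genes of helper lineages and cytokines 49, with 19 above and 30 below 0 (median -0.122, 2 under 0.05). DESeq2 and limma-voom likewise called the Bhlhe40 site alone over these 5 lists. All of these stand beside a median of -0.044 over all tested intergenic peaks, of which 0.0914% were called and 9.77% had an unadjusted p under 0.05 (0.0867% and 9.47% of all tested peaks), and differences between lists were not tested.

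Genes of the processes around Opa1 had few intergenic peaks. Of 49 lysosome and autophagy genes 16 had one, giving 19 tested peaks with 8 above and 11 below 0 (median -0.313) and none called, with 1 at an unadjusted p under 0.05. That one lay near Atp6v1c1, part of the V-ATPase proton pump of lysosomes, with 9.69 to 15.3 CPM in WT and 5.06 to 9.86 CPM in KO, overlapping at their edges (-0.72, SE 0.35, adjusted p = 0.509). Of 37 genes of mitochondrial dynamics and respiration 12 had one, with 20 tested peaks, 9 above and 11 below 0 (median -0.009, 2 at an unadjusted p under 0.05, none called). The site with the smallest p was near Cycs, the cytochrome c gene, with 55 counts in WT and 22 in KO (-1.30, SE 0.55, adjusted p = 0.436). The Cycs peak passed the count filter only through the WT libraries. Of 26 genes of the integrated stress response 8 had one, with 14 tested peaks, 10 above and 4 below 0 (median 0.060, 1 at an unadjusted p under 0.05, none called), and Psat1, a serine synthesis enzyme, had the smallest p (-0.87, adjusted p = 0.488). The weak Atp6v1c1 and Psat1 peaks also needed WT libraries, where they were higher, to pass the count filter. DESeq2 and limma-voom called none of the peaks of these 3 lists either. Over all tested peaks edgeR called 0.0867%, and 9.47% had an unadjusted p under 0.05.

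Marker genes of cell types were counted in the same way. Of the 11 peaks of B cell genes 1 was intergenic, with 11 of 16 for myeloid genes and 3 of 10 for erythroid genes. For CD8 and NK genes it was 16 of 25 and for pan T cell genes 31 of 85, beside 27.6% of the whole table. The only intergenic B cell peak, near Cd22, held 18.9, 13.5, 12 and 10.5 CPM in WT and 5.55, 7.58 and 10.2 CPM in KO, the highest KO library being just under the lowest WT library (-0.86, adjusted p = 0.417). CD8 and NK genes had 13 tested peaks, 8 above and 5 below 0, myeloid genes 11 with 6 and 5, and erythroid genes 2 with 1 each. Pan T cell genes had 24, with 10 above and 14 below 0 (median -0.124). No peak of these 5 lists was called by edgeR, DESeq2 or limma-voom, with 7 at an unadjusted p under 0.05. Over all tested peaks edgeR called 0.0867%, and 9.47% had such a p.

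Besides lncRNAs, 8 intergenic peaks covered microRNA genes, short RNAs that silence messages through a seed at bases 2 to 8. Of these, 3 are shown for their known roles in lymphocytes, with the seed in capitals (RefSeq, GRCm38.p6): let-7i, a member of the family that restrains growth genes; miR-132, made in activated neurons and immune cells; and miR-155, which Treg cells need for fitness. Their seeds all differ.
mmu-let-7i-5p: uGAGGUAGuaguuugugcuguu
mmu-miR-132-3p: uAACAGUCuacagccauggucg
mmu-miR-155-5p: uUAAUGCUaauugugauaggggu
The let-7i gene lies in a peak nearest to Mon2 (chr10:122985587-122986243) with 53.8 to 70.5 CPM in WT and 55.6 to 63.2 CPM in KO (-0.05, or 0.03 without WT replicate 3). The miR-132 gene lies in one nearest to Ovca2 (chr11:75173465-75173886), with 13.1 to 24.2 CPM in WT and 8.85 to 15.7 CPM in KO (-0.36, SE 0.29). The miR-155 peak, nearest to Mrpl39 (chr16:84714003-84714243), was dim, with 6.32 to 13.5 CPM and 10.8 to 15.8 CPM (0.29, SE 0.34). Of the 8 peaks 7 were tested. All 8 overlapped between genotypes, none was called by edgeR, DESeq2 or limma-voom, and none had an unadjusted p under 0.05 (smallest adjusted p 0.736). Over all tested peaks 9.36% did not overlap, edgeR called 0.0867% and 9.47% had an unadjusted p under 0.05.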

How the data were processed

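ATAC-seq libraries of sorted splenic Treg cells, 4 WT and 3 Opa1 KO per the labels, were read from 1 table of whole-number counts per peak that the authors deposited without normalization. Per the submitters' processing notes the tools included BWA 0.7.16 with Trimmomatic 0.36, MACS2 2.1.1, bedtools 2.25.0, SAMtools 1.9 and Picard 2.9.4, on mm10, with settings, peak merging and any transposase shift not given in the sources used here. Merging sets the peaks and a shift their edges. Interval starts are printed as deposited, and whether they count from 0 or 1 is not stated. Between 78.0% and 86.3% of counts per library were even, which counting both mates gives, so counts overstate fragments.

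Distances were taken to the ends of 21900 protein-coding genes of GRCm38.p6 (RefSeq). Peaks were tested with edgeR 4.0.16 (quasi-likelihood, robust, genotype only) in R 4.3.3 on the whole table after filterByExpr (minimum count 10, total 15), using TMM factors (0.985 to 1.01), and Benjamini-Hochberg adjustment over 38041 peaks. CPM uses the TMM factors. Shares were compared by exact permutation over 35 splits (SciPy 1.17.1). P-values measure the spread between these samples, which may be technical. No molecular identifiers are described and PCR copies are not independent, so intervals cover counting error only.

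Alternatives were total counts, loess offsets, DESeq2 1.42.0, limma-voom 3.58.1, other filters, halved counts, WT replicates 2 and 3 summed, a replicate block, other distance and width rules, and each library left out. Tests were checked on simulated data. Peaks named were all called ones; per distance class, the 3 smallest p per direction and the 4 brightest; the brightest at 18 Treg genes; and the smallest p per gene list; with the genes that have the most peaks (6, given a tie for the fifth). The microRNA and snRNA peaks and the chromosome counts were chosen after their values were seen. Members and lists were chosen with earlier results of these data known. Of the listed genes Trac is not in the protein-coding table. One microRNA site and one listed gene are not reported here.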

Additional observations from a re-analysis of the deposited data

Results flagged for a closer look

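Of 77 values or peaks checked, 4 had 1 WT library far from the other 3, in a test by which chance picks about 1 group in 20. WT replicate 2 had the lowest WT share of counts in intergenic peaks at 1 to 10 kb, 6.19%, while the other WT libraries lay at 6.28% to 6.29%. The same library was high at the site near S1pr1, with 99.5 CPM against 72.2 to 74.8 CPM, and at the site near Prune2, with 42.0 CPM against 23.2 to 25.3 CPM. WT replicate 3 was high at the site near Mfsd9, with 15.7 CPM against 12.2 to 12.6 CPM.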

How the results depend on the processing

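Of the 9 calls (3 higher, 6 lower; 3 at 1 to 10 kb, 6 at 10 to 50 kb, 0 at 50 to 100 kb), halved counts gave 19 (6 and 13; 5, 10 and 4). A mean count of at least 20 gave 14, with 5 higher and 2 at 50 to 100 kb, a class with 2 under loess offsets, 1 under DESeq2 and 1 with no filter. Leaving out single libraries gave 2 to 11 calls, 0 to 4 higher and 1 to 7 lower, 0 to 3, 1 to 8 and 0 to 1 by class. The cause was not tested. The class medians (-0.050, -0.048, -0.020) were -0.078, -0.076 and -0.048 with total counts, -0.017, -0.019 and -0.002 with loess offsets, and -0.027 and -0.033 in the nearer classes at a mean count of 20. Without single libraries they ran from -0.068 to -0.033, -0.065 to -0.025 and -0.043 to -0.011. The 4 share differences kept their direction under all alternatives run.

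With the replicate block edgeR called 1 peak (0 higher, 1 lower; 0 at 1 to 10 kb and 1 at 10 to 50 kb), beside 13 of all 38041 tested peaks (0.0342%). No sign was found that the numbers pair the samples. Same-numbered libraries deviated with correlations of 0.013, -0.010 and 0.004, beside -0.036 to 0.027 for the other pairs. At these low counts a pairing may be missed.

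Some uncalled sites near 0 changed sign. Pdcd1 (0.00) gave -0.03 with the block, -0.07 with loess offsets and -0.02 with halved counts, a mean count of 20 or total counts. Nr4a1 (0.02) gave -0.00, -0.04 and -0.01 in the same order, Tnfrsf9 (0.03) -0.01 with loess offsets and -0.00 halved, Sp4 (0.05) -0.02 with loess offsets, and Gtf2i (0.10) -0.07 with limma-voom. Without single libraries the ranges were -0.22 to 0.02 for Ikzf2, -0.03 to 0.04 for Pdcd1, -0.11 to 0.03 for Mon2, -0.22 to 0.01 for Irf1, -0.07 to 0.09 for Nr4a1, -0.01 to 0.17 for Gm51425, -0.05 to 0.28 for Il2ra, -0.04 to 0.11 for Tnfrsf9, -0.27 to 0.42 for Gtf2i and -0.12 to 0.06 for Glcci1.

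With median counts of 12 to 24 per intergenic peak, 3984 of 13836 peaks had too few counts to be tested.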

Other observations

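Intergenic peaks on genes of small nuclear RNAs, the RNA parts of the spliceosome, were looked at after their values had been seen. There were 13, wide for intergenic peaks (median 712 bp), and all were tested. Their summed level was 391, 340.5, 376 and 388 CPM in WT and 305, 331 and 288 CPM in KO, so every KO library was below every WT library. Of the 13 peaks 10 were below 0 (median log2 fold change -0.38, and -0.37 with loess offsets). None was called by edgeR (smallest adjusted p 0.421), DESeq2 or limma-voom, and 4 of the 13 had an unadjusted p under 0.05, all lower, beside 4.73% lower and 9.47% in either direction over all tested peaks. The site on Rnu2-10, a copy of the U2 RNA, near Arl4d (chr11:101658329-101659041), held 27.6, 25, 29.5 and 33.7 CPM in WT and 18.2, 22.8 and 19.4 CPM in KO (-0.55, SE 0.23, adjusted p = 0.428). Small nuclear RNA genes exist in near-identical copies, so reads may be split among them, which makes these levels uncertain. By contrast the 76 intergenic peaks on tRNA genes summed to 1375 to 1467 CPM in WT and 1350 to 1462 CPM in KO, overlapping, with a median log2 fold change of -0.03. The difference between these groups of peaks was not tested.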
